A study of Mus musculus with 12 samples.

Results

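The transcripts examined here encode the subunits of the oxidative phosphorylation (OXPHOS) machinery, and they were followed in spermatogonia of control and cryptorchid testes. Members were the genes whose symbol began with Nduf followed by A, B, C, S or V and a number, was *Sdha*, *Sdhb*, *Sdhc* or *Sdhd*, or began with Uqcr, Cox4 to Cox8 or Atp5. This gave 87 of the 21859 genes with deposited values, of which 36 belong to complex I, 4 to complex II, 8 to complex III, 21 to complex IV and 18 to complex V. *Ndufa4* and *Ndufa4l2* carry complex I symbols and were counted with complex IV, of which *Ndufa4* is known to be a subunit. *Ndufb1-ps* was counted with complex I by its symbol, although the GENCODE annotation lists it as a non-coding RNA. Genes that once shared these names without being subunits (*Atp5s*, *Atp5sl*, *Atp5if1* and *Cox4nb*) are listed under other symbols and were no members.

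OXPHOS takes electrons from NADH at complex I and from succinate at complex II, passes them by way of ubiquinone to complex III and by cytochrome c to complex IV, which reduces oxygen. Complexes I, III and IV pump protons out of the mitochondrial matrix, and complex V, the ATP synthase, makes ATP as the protons return. Most subunits are encoded in the nucleus, a small group that sits in the membrane core is encoded by mitochondrial DNA, and the testis uses its own forms of several nuclear-encoded subunits.

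Libraries were made from GFRa1+/*Kit*- spermatogonia, sorted from GFRa1-EGFP mice labelled wild type, in which EGFP marks cells that express the GDNF receptor gene *Gfra1* and cells with the differentiation marker KIT on their surface are left out. In unilateral surgery, 1 testis was fixed to the abdominal wall and the opposite testis stayed in the scrotum as the control, and both were taken 10 days later. There were 5 control and 7 cryptorchid libraries, each from RNA of about 200 cells, and no source says which of them came from the same mouse. Cryptorchid testes were digested at a higher temperature than control testes, so that surgery and digestion cannot be told apart. In such bulk samples fewer cells of a type and less RNA per cell cannot be told apart either, and where nothing says that libraries came from separate animals, *P*-values measure only the spread between these libraries.

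The totals implied by the deposited values ran from 3414861 to 28767673 reads per library. The 10 markers listed for undifferentiated spermatogonia all had reads, with summed levels of 1095 to 1569 RPM (reads scaled to a common library total) in control and 1237 to 1917 RPM in cryptorchid libraries. The 8 spermatid markers, which include the protamine genes *Prm1* and *Prm2*, were present as well and lower in the cryptorchid group, at 559 to 2857 RPM in control and 26.5 to 1914 RPM in cryptorchid libraries, with 4 of 8 lower at an unadjusted *P* under 0.05. Summed markers of spermatocytes were at 260 to 386 RPM (median 357) in control and 348 to 532 RPM (median 439) in cryptorchid libraries. Those of differentiating spermatogonia were at 169 to 373 and 208 to 404 RPM. Summed markers of Sertoli cells were at 44.6 to 247 RPM in control and 40.7 to 247 RPM in cryptorchid libraries, those of macrophages at 49.2 to 133 and 17.3 to 186 RPM, and those of Leydig, peritubular myoid and endothelial cells and of lymphocytes at no more than 47.8 RPM in any library. Of the 6 macrophage markers, *Aif1* was the highest in every library except cryptorchid replicate 2, where it had no reads. In cryptorchid replicate 6 it was at 7.44 log2 RPM and *Csf1r*, the next, at 2.81. The macrophage sum therefore rests largely on 1 gene, and the cell type behind it was not tested. The libraries fell into 3 sets that cut across the 2 groups. Replicates 1 and 2 of both groups listed reads on all 13 mitochondrial DNA-coded genes, whereas the other 8 libraries listed all of them at 0. Replicate 3 of both groups had low levels of short transcripts, OXPHOS subunits included. The labels name no batch. The paper names HiSeq X and NovaSeq X Plus as sequencers and does not say which library was run on which. It also left out RNA-seq datasets with too many duplicates. Whether the sets follow the sequencer was not tested. Results are given both over all libraries and with the 3 sets as a term, a fit chosen once the data had been seen.

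Promoter sequences are shown first, because OXPHOS genes are known to share binding letters for a few transcription factors and because the testis paralogs have promoters of their own. RefSeq (GRCm38.p6) gave a promoter of 250 bases before and 50 after the start for 68 of the 87 members, and the first listed start of each gene was used. The letters GCATGCGC or GCGCATGC are the core bound by nuclear respiratory factor 1 (NRF1). They were in 10 of 68 members (14.7%) and in 2.80% of the promoters of all 27025 genes with an entry. AAGATGGC or GCCATCTT, the core bound by YY1, was in 9 members (13.2%) and 2.88% of all promoters. None of the 9 lay wholly before the start. CCGGAAGT or ACTTCCGG, an ETS core that GABP binds, was in 5 members (7.35%) and 4.0% of all promoters. CCAAT or ATTGG was in 30 members (44.1%) against 37.9% of all promoters, and TATAAA or TTTATA in 8 members (11.8%) against 14.2%. Both strands were searched, matches may overlap, and a match describes letters and not binding.

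The bases before the start of *Cox6a1* and *Ndufa6* are shown for their NRF1 letters, and those of *Cox6b1*, *Cox6b2*, *Cox7b* and *Cox7b2* because the testis forms are set against their ubiquitous forms further on. Each is the longest stretch within 250 bases before the start that holds no annotated exon. Capitals mark matches to any of the 5 motifs.
Cox6a1 (chr5:115348982-115349129, minus strand): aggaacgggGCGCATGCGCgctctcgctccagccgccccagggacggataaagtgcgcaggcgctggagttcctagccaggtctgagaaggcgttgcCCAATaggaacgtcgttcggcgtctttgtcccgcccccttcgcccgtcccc
Ndufa6 (chr15:82354323-82354541, minus strand): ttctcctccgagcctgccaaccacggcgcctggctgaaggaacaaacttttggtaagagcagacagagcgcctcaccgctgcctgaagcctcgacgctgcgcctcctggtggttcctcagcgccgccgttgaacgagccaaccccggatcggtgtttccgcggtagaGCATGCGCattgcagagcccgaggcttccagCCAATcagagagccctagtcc
Cox6b1 (chr7:30626152-30626364, minus strand): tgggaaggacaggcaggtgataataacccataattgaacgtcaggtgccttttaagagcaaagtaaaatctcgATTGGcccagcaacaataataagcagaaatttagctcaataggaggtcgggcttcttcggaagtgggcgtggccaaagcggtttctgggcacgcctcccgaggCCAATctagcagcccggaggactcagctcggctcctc
Cox6b2 (chr7:4753095-4753225, minus strand): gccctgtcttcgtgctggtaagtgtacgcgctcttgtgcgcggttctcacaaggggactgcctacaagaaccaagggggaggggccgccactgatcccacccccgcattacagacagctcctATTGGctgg
Cox7b (chrX:106015450-106015699, plus strand): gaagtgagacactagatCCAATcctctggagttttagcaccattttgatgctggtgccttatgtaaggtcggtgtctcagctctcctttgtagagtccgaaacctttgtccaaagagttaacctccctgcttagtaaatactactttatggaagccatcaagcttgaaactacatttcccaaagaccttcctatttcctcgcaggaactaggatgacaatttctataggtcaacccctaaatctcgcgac
Cox7b2 (chr5:71548206-71548455, minus strand): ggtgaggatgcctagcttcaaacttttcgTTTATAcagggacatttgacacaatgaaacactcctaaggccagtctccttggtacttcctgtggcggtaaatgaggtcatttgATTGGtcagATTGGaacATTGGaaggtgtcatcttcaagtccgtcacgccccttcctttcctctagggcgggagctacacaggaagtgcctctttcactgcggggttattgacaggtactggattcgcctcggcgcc
*Cox6a1* held the NRF1 letters in both orientations, overlapping, 162 bases before its start, and *Ndufa6* held them once, 83 bases before. The stretches of *Cox6b1*, *Cox6b2*, *Cox7b* and *Cox7b2* held no NRF1, YY1 or ETS letters, and *Cox7b2* held the CCAAT letters 3 times.

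The YY1 letters at the starts of 4 members are shown because all 9 matches fell at or after the start. The letters contain ATG, so that those after the start can coincide with a start codon.
Atp5pb (chr3:105959251-105959274, minus strand): tgcgagcgGCCATCTTgctcctgc
Ndufs7 (chr10:80249465-80249488, plus strand): ccgaggccAAGATGGCggcgctgg
Ndufs4 (chr13:114388045-114388067, minus strand): cctacaggAAGATGGCggcggtc
Ndufb8 (chr19:44555393-44555412, minus strand): agaaggtgAAGATGGCtgcc

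Subunit transcripts were abundant in these cells. The median member was at 6.69 log2 mean RPM, against 4.43 for the 16932 genes that passed the filter on low values (log2 mean RPM above -1). Together the members made up 0.503% to 1.94% of all reads of a control library and 0.503% to 1.49% of those of a cryptorchid library. The lowest value in each group was that of replicate 3. Per kilobase of the principal transcript, *Cox4i1*, a complex IV subunit that contacts the catalytic core, had the highest level in both groups, at 10.47 log2 RPM per kb in control and 10.02 in cryptorchid libraries. It was followed in both groups by *Ndufb9*, an accessory subunit of complex I, at 9.02 and 8.70 log2 RPM per kb. At the other end, *Cox6a2* and *Cox8b*, the muscle forms of complex IV subunits, had at most 9 reads in any library and did not pass the filter, which left 85 members to be tested.

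**Figure D1:**
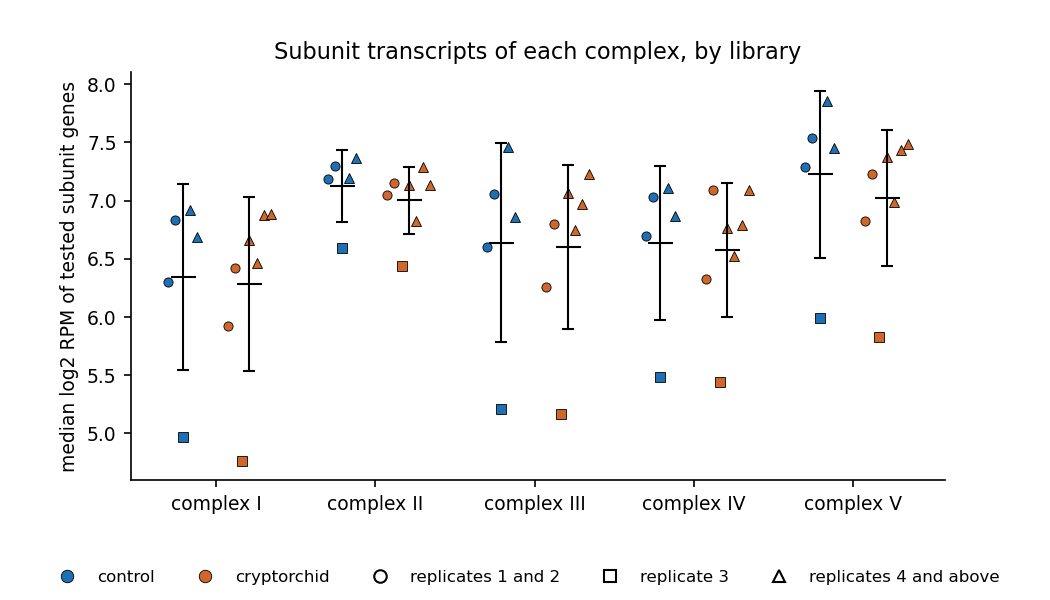
Median log2 RPM of the tested subunit genes of each complex in each library, with control libraries in blue and cryptorchid libraries in orange. Point shapes mark the 3 sets of libraries, and bars show the mean ± SD of 5 control and 7 cryptorchid libraries. The groups overlap in every complex, and replicate 3 is the lowest library of both groups in every complex.

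To ask whether cryptorchidism changes subunit expression, the groups were first compared over all libraries with limma. Of the 85 members, 0 passed the call at 2-fold and an unadjusted *P* of 0.05, when 3.56% of all genes tested did so upwards and 2.36% downwards. Other genes with a log2 mean RPM above 6 passed it less often, in classes set after the values were seen. Of 3829 such genes of 1 kb or more, 28 passed upwards and 46 downwards. Of 253 under 1 kb, 1 passed upwards and 6 downwards. Beside these counts, 0 of 85 does not set the members apart. At an unadjusted *P* of 0.05 without the fold limit, 0 members were higher and 1 was lower, with 5.67% of all genes higher and 3.82% lower. After adjustment over all genes 0 members and 2 of 16932 genes (0.0118%) passed. By voom on recovered reads 0 members passed after adjustment, 0 were higher and 1 lower at an unadjusted *P* of 0.05. The groups overlapped in all 85 members, and 0.555% of all genes had no overlap with cryptorchid libraries higher and 0.283% with them lower. At such shares a count of 0 among 85 genes cannot be told apart from that of all genes. The median log2 fold change of the members was -0.07, and that of all genes was 0.10. Below 0 were 62.4% of the members and 43.3% of all genes. These medians depend on single libraries: that of the members was 0.05 without control replicate 4 and 0.12 without cryptorchid replicate 3, and -0.43 without control replicate 3.

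With the 3 sets of libraries as a term, 22 of the 85 members (25.9%) were lower in cryptorchid spermatogonia at an unadjusted *P* of 0.05 and 0 were higher, beside 9.17% of all genes lower and 9.74% higher. After adjustment 1 member was lower (*Atp5d*), beside 1.18% of all genes. The count of lower members ran from 10, without control replicate 4, to 30 as single libraries were left out, and it was 19 after median centring. The median log2 fold change of the members in this fit was -0.23, against 0.04 for all genes, and 75.3% of the members were below 0 (46.9% of all genes). In replicates 1 and 2, 67 of 85 members (78.8%) were lower in the cryptorchid group (median difference -0.25), beside 48.1% of all genes. In replicates 4 and above 66 (77.6%) were lower (median -0.31), beside 49.1% of all genes. In replicate 3, with 1 library in each group, 42 (49.4%) were lower, beside 42.3% of all genes. There the median difference was 0.0016 for the members and 0.13 for all genes. The median of all genes was 0.03 in replicates 1 and 2 and 0.01 in replicates 4 and above. No member passed 2-fold with the sets as a term.

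**Figure D2:**
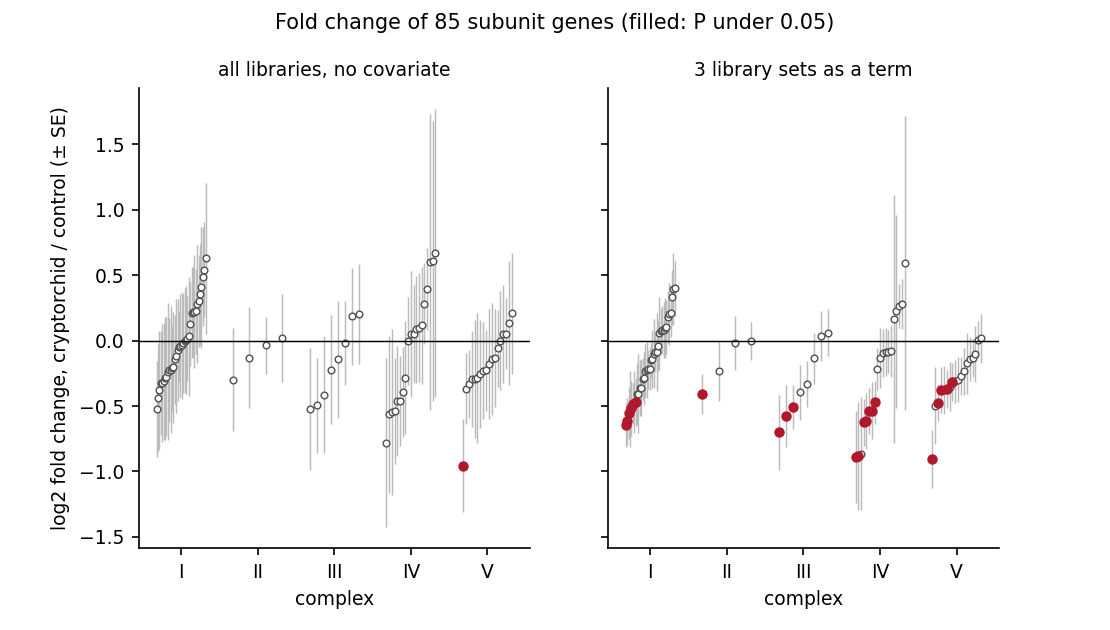
Log2 fold change (cryptorchid over control, ± SE) of the 85 tested subunit genes, ordered within each complex, over all libraries on the left and with the 3 library sets as a term on the right. Filled red points have an unadjusted *P* under 0.05, which is 1 gene on the left and 22 on the right, all of them below 0.

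Other short and abundant genes held a share of lower transcripts close to that of the members, a difference that was not tested. OXPHOS transcripts are short, with a median of 742 nt (360 to 3171 nt) against 2771 nt for all genes tested. Of the 253 other genes under 1 kb with a log2 mean RPM above 6, 24.9% were lower with the sets as a term and the median log2 fold change was -0.19. Of the 3829 other genes above that level and of 1 kb or more, 12.5% were lower and the median was 0.03. Among the members, 16 of 54 under 1 kb (29.6%) and 6 of 29 of 1 kb and over (20.7%) were lower, with medians of -0.30 and -0.14. Of the 253 other short and abundant genes, 175 were below 0 in replicates 1 and 2 (median -0.12). In replicates 4 and above 193 were below 0 (median -0.35). These classes were set after the values were seen. The 253 short and abundant genes include the spermatid gene *Prm2*, the lowest of them with the sets as a term (log2 fold change -4.07). In that fit 16 of the 253 passed the 2-fold call downwards, and 0 of the members did. The part of spermatid transcripts in the shares of this class was not tested. Short transcripts also moved with the members from library to library, and their part in the members' difference was not tested. In control replicate 4 the median deviation of the members from their level over all libraries was 0.62, and that of other genes under 1 kb was 0.59 (log2). In replicate 3 it was -1.45 (control) and -1.50 (cryptorchid) for the members and -1.01 and -1.06 for the other short genes.

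**Figure D3:**
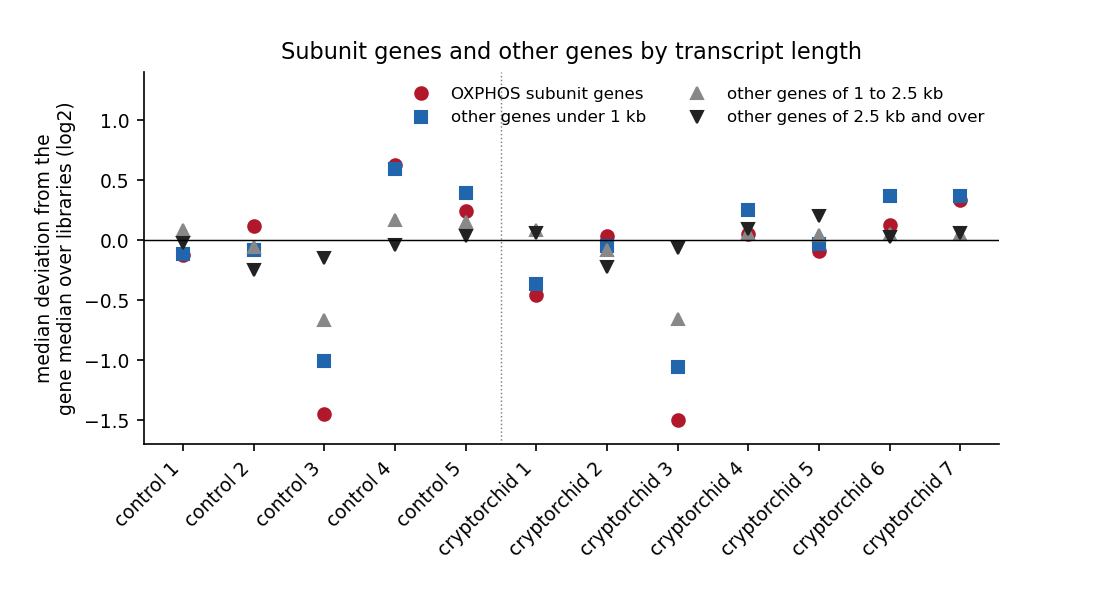
Median deviation of each gene class from its median over the 12 libraries (log2), for the OXPHOS subunit genes and for other tested genes under 1 kb, of 1 to 2.5 kb and of 2.5 kb and over. The subunit genes and the other short genes are lowest in replicate 3 of both groups and highest in control replicate 4, while genes of 2.5 kb and over lie between -0.25 and 0.20 in all 12 libraries.

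In complex I, the NADH dehydrogenase, 24 of 36 members were below 0 with the sets as a term and 6 were lower at an unadjusted *P* of 0.05 (16.7%). In that fit 9.17% of all genes and 24.9% of the other short and abundant genes were lower, and the counts of the other complexes stand beside the same shares. *Ndufb8*, an accessory subunit of the membrane arm, was at 7.34, 7.68, 5.90, 8.30 and 7.98 log2 RPM in control libraries and at 5.69 to 7.80, with a median of 7.26, in cryptorchid libraries. The ranges overlapped, but within each of the 3 sets the cryptorchid mean was below the control mean. Its log2 fold change was -0.65 ± 0.169 (SE) with an adjusted *P* of 0.0553, and -0.44 with an adjusted *P* of 0.770 over all libraries. *Ndufs3*, a core subunit of the peripheral arm, was at 6.84, 7.0, 5.07, 6.63 and 7.01 log2 RPM in control and 4.74 to 6.44 (median 6.28) in cryptorchid libraries. In control libraries other than replicate 3 it was above all 7 cryptorchid libraries, and its log2 fold change with the sets was -0.62 ± 0.180 (SE). *Ndufs3* shares exon positions with *Kbtbd4* on the other strand, whose log2 fold change in that fit was 0.22. *Ndufb9*, *Ndufb10*, *Ndufa11* and *Ndufs8* were the other 4, at -0.47 to -0.56. The core subunits did not move as one: *Ndufs3* and *Ndufs8* were the 2 of 7 that were lower, while *Ndufv2*, which carries an iron-sulphur cluster, was at 0.08 and *Ndufs1*, the largest subunit, at 0.08. *Ndufa1*, an accessory subunit, had the highest log2 fold change of the complex over all libraries (0.63) and did not pass the test (adjusted *P* = 0.763).

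Complex II, succinate dehydrogenase, also acts in the tricarboxylic acid cycle. Its flavoprotein gene *Sdha* was at 8.75, 8.08, 6.84, 7.63 and 8.35 log2 RPM in control libraries and 7.05 to 8.73 (median 8.10) in cryptorchid libraries. The means differed by less than the spread between libraries, 7.93 ± 0.73 (SD, n = 5) and 7.95 ± 0.53 (SD, n = 7). *Sdhb*, the iron-sulphur subunit, was the 1 of 4 that was lower with the sets as a term (9.17% of all genes were), with a log2 fold change of -0.41 ± 0.154 (SE). Its adjusted P was 0.166. *Sdhc* and *Sdhd*, the membrane anchors, had adjusted *P*-values of 0.997 and 0.619.

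In complex III, the cytochrome bc1 complex, 3 of 8 members were lower with the sets as a term (37.5%, beside 9.17% of all genes). *Uqcrc1*, a core subunit, was at 9.15, 9.24, 7.13, 9.09 and 8.73 log2 RPM in control libraries and at 7.44 to 8.81 (median 8.16) in cryptorchid libraries. It was lower in the cryptorchid group in replicates 1 and 2 (-0.49) and in replicates 4 and above (-0.82), and higher in replicate 3 (0.31). Its log2 fold change with the sets was -0.50 ± 0.168 (SE). The small subunits *Uqcr10* and *Uqcr11* were at -0.70 and -0.57. *Uqcrc2*, the partner of *Uqcrc1* in the core, was at 0.04, *Uqcrfs1*, the Rieske iron-sulphur protein, at -0.14 and *Uqcrb* at 0.06.

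Of the 19 tested members of complex IV, cytochrome c oxidase, 7 were lower with the sets as a term (36.8%, beside 9.17% of all genes). *Cox4i1*, *Cox5a* and *Cox5b*, which bind the mitochondrial DNA-coded core, were among them. *Cox4i1* was at 9.71, 10.25, 8.70, 10.97 and 10.71 log2 RPM in control libraries and 8.46 to 10.19 (median 9.87) in cryptorchid libraries. Control replicates 2, 4 and 5 were above all cryptorchid libraries. Its log2 fold change was -0.63 ± 0.182 (SE) with an adjusted *P* of 0.0796. The gene overlaps *Emc8* on the other strand, and *Emc8* was at -0.47 in the same fit. *Cox5b* was at 7.22, 7.99, 5.58, 7.75 and 7.35 log2 RPM in control libraries and 5.32 to 7.50 (median 6.79) in cryptorchid libraries, and at -0.61 ± 0.211 (SE). Within the 3 sets the log2 difference was -0.55, -0.26 and -0.79. *Cox5a* was at -0.54, *Cox6a1* at -0.54 and *Cox8a* at -0.47. The other 2 were *Cox6b2*, a testis form, and *Cox5b-ps*, which is named as a pseudogene and listed as protein-coding in GENCODE. *Cox5b-ps* resembles *Cox5b* and may share its reads. Others did not follow: *Cox6b1*, *Cox7c*, *Cox6c* and *Ndufa4* were at -0.08 to -0.09, and *Cox7a2l*, which links complexes III and IV, was at 0.26.

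Complex V had the member with the smallest *P*. *Atp5d* encodes the delta subunit of the central stalk of the F1 part. It was at 7.61, 8.03, 6.33, 7.93 and 7.27 log2 RPM in control libraries and 5.89 to 7.74, with a median of 6.14, in cryptorchid libraries. Control replicates 2 and 4 were above all 7 cryptorchid libraries, and control replicates 1 and 5 were above all of them except cryptorchid replicate 2. The control mean was 7.43 ± 0.69 (SD, n = 5) and the cryptorchid mean 6.47 ± 0.67 (SD, n = 7), a fold of 0.515. By limma the log2 fold change was -0.96 ± 0.356 (SE) with an unadjusted *P* of 0.0150 and an adjusted *P* of 0.407. An exact two-sided permutation test over all assignments of libraries gave *P* = 0.0404, and over the 180 assignments within the 3 sets *P* = 0.0111. With the sets as a term limma gave -0.90 ± 0.222 (SE) and an adjusted *P* of 0.0448. In that fit no member passed adjustment without control replicate 2, 4 or 5 or cryptorchid replicate 1, 4, 5 or 7, and 3 passed without cryptorchid replicate 2. The log2 difference was -0.45 in replicates 1 and 2, -0.36 in replicate 3 and -1.44 in replicates 4 and above. *Atp5d* overlaps *Cbarp* on the other strand and the counting strand is not stated. *Cbarp* had 11 to 333 reads per library against 202 to 7501 for *Atp5d*, and a log2 fold change of -0.80 (adjusted *P* = 0.381) with the sets.

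**Figure D4:**
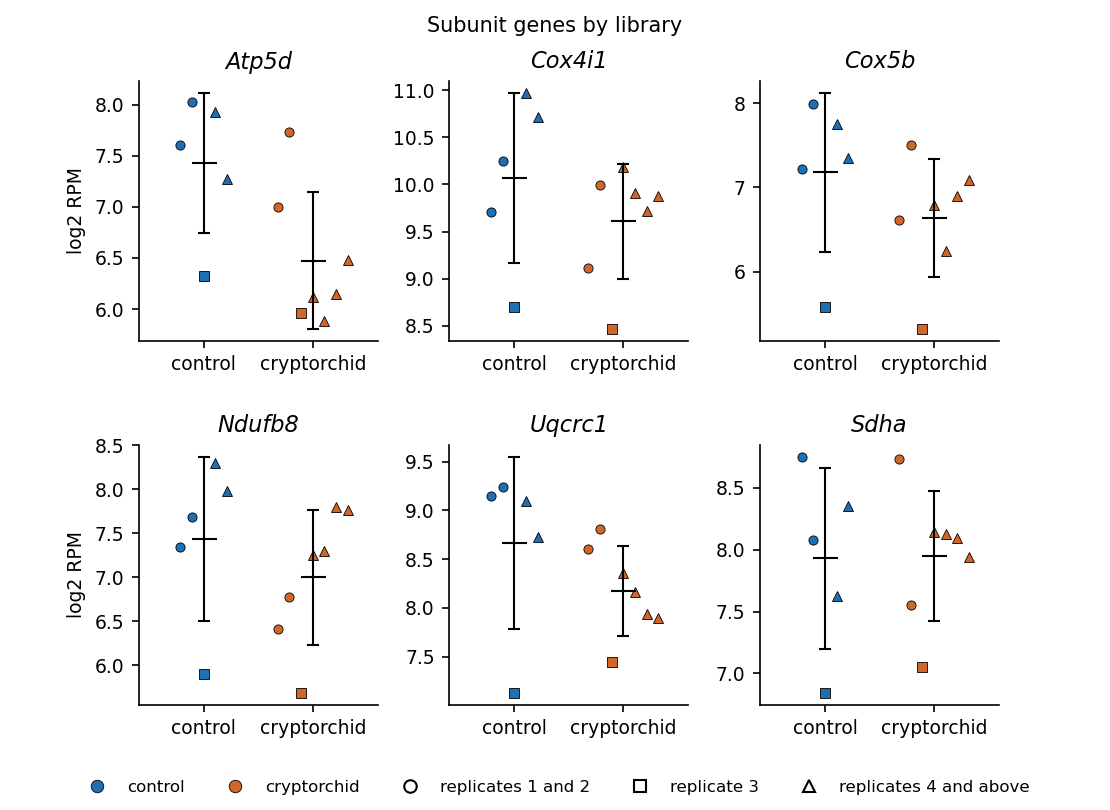
Log2 RPM of *Atp5d*, *Cox4i1*, *Cox5b*, *Ndufb8*, *Uqcrc1* and *Sdha* in each library, with bars for the mean ± SD of 5 control (blue) and 7 cryptorchid (orange) libraries. Squares mark replicate 3, the lowest library of the group in all panels except that of *Atp5d*, where cryptorchid replicate 5 is lower. The means of *Sdha* differ by 0.02.

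The catalytic and ring subunits of complex V were all below 0, but by less. The alpha and beta subunit genes *Atp5a1* and *Atp5b* were at -0.31 ± 0.146 and -0.27 ± 0.146 (SE) with the sets as a term, and *Atp5c1*, the gamma subunit of the stalk, at -0.37. *Atp5g1*, *Atp5g2* and *Atp5g3* encode the same c subunit of the membrane ring, and they were at -0.38, -0.35 and -0.48. Of these 6, *Atp5a1*, *Atp5c1* and *Atp5g3* passed an unadjusted *P* of 0.05. *Atp5mpl*, a small subunit of the membrane part, was the remaining lower member of the complex, at -0.38. *Atp5h*, of the peripheral stalk, was at 0.02. *Atp5o* and *Atp5o.1* are listings of overlapping genes of the same name, and they were at -0.13 and -0.23.

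Testis paralogs were compared with their ubiquitous forms within each library, which removes the level that both share. *Cox7b2*, the testis form of the small complex IV subunit *Cox7b*, was the more abundant of its pair. It was at 5.59, 6.14, 6.89, 6.59 and 6.68 log2 RPM in control and 5.81 to 7.51 (median 6.71) in cryptorchid libraries, and per kilobase it was above *Cox7b* in 12 of 12 libraries. The log2 ratio of *Cox7b2* to *Cox7b* averaged 0.87 ± 0.96 (SD, n = 5) for control libraries and 1.21 ± 0.35 (SD, n = 7) for cryptorchid libraries. An exact two-sided permutation test of the difference of 0.34 gave *P* = 0.415. Control replicate 3 stood at 2.51, and without it the difference was 0.75 with an exact permutation *P* of 0.0152. Leaving out any other single library gave 0.12 to 0.43, with exact permutation *P*-values of 0.333 to 0.791.

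*Cox6b2*, the testis form of a subunit on the intermembrane side of complex IV, was far below *Cox6b1*. It was at 3.70, 3.13, 3.28, 5.34 and 5.15 log2 RPM in control and at 1.68 to 5.36 (median 3.51) in cryptorchid libraries. Its log2 ratio to *Cox6b1* was -3.54 ± 0.81 (SD, n = 5) and -4.22 ± 0.68 (SD, n = 7), and the difference of -0.68 had an exact permutation *P* of 0.146. Within the 3 sets the difference was -0.81 with an exact permutation *P* of 0.0611. Without control replicate 2 it was -1.01 with an exact permutation *P* of 0.0303. Leaving out any other single library gave -0.87 to -0.49, with exact permutation *P*-values of 0.0628 to 0.306. *Cox8c*, the testis form of *Cox8a*, had a log2 ratio of -3.77 ± 0.78 (SD, n = 5) and -4.03 ± 1.11 (SD, n = 7) to it, with an exact permutation *P* of 0.657. Both *Cox6b2* and *Cox8c* were lower than their ubiquitous forms per kilobase in every library. The summed spermatid markers, given above, were lower in the cryptorchid group as well, and their part in the levels of *Cox6b2* and *Cox8c* was not tested.

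**Figure D5:**
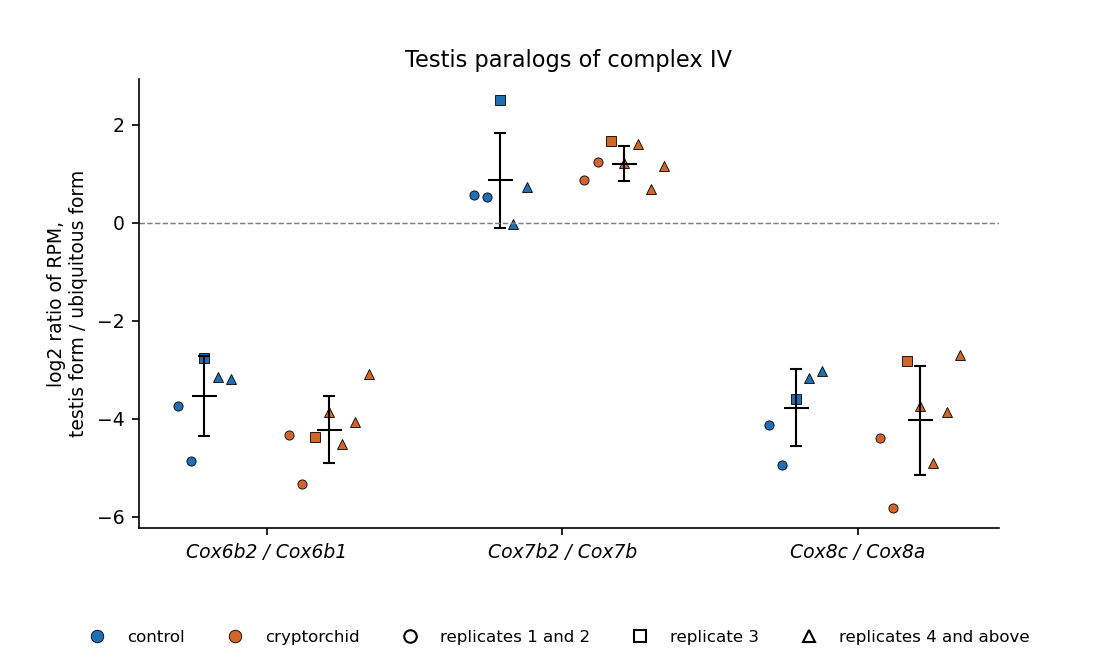
Log2 ratio of RPM of the testis form to the ubiquitous form in each library for *Cox6b2* and *Cox6b1*, *Cox7b2* and *Cox7b*, and *Cox8c* and *Cox8a*, with bars for the mean ± SD of 5 control (blue) and 7 cryptorchid (orange) libraries. The dashed line marks equal RPM, and all groups overlap.

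Forms of other tissues were close to absent. *Cox4i2*, known from lung, had 0 to 29 reads per library and a log2 ratio to *Cox4i1* of -11.15 in control libraries. *Cox7a1*, of heart and muscle, had 0 to 51 reads and *Ndufa4l2* 0 to 10 reads. The differences of their ratios between the groups had exact permutation *P*-values of 0.384, 0.505 and 0.638. *Cox8b* was listed with no reads in 9 of 12 libraries and *Cox6a2* in 6, so no ratio was tested for them.

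Germline forms of proteins that feed or serve the complexes were set beside the subunits. *Slc25a31*, the germ cell ADP/ATP carrier, was above *Slc25a5* per kilobase in 12 of 12 libraries, and *Cyct*, the testis cytochrome c, above *Cycs* in 11. Their log2 ratios differed between the groups by -0.29 and -0.36, with exact permutation *P*-values of 0.384 and 0.491. *Pdha2*, the testis form of a pyruvate dehydrogenase subunit, had a log2 ratio to *Pdha1* that differed by 0.0047 (exact permutation *P* = 0.99). *Oxct2a*, a germ cell form of the ketone body enzyme *Oxct1*, was the exception. It was at 4.93, 2.81, 4.50, 5.41 and 5.89 log2 RPM in control and -2.48 to 3.31 (median 1.24) in cryptorchid libraries. Its log2 ratio to *Oxct1* was -2.05 ± 1.14 (SD, n = 5) and -6.01 ± 2.37 (SD, n = 7), and the exact permutation P was 0.00758 over all libraries and 0.0111 within the 3 sets. No cryptorchid library held more than 63 reads of *Oxct2a*, whereas every control library held 202 or more. Cryptorchid replicate 5 had no reads of it, so its ratio rests on the 0.9 reads set for such genes. With log2(RPM + 1) the difference of the ratios was -3.08, with an exact permutation *P* of 0.00631. *Oxct2a* is known from haploid germ cells, and the spermatid markers moved the same way, by a median log2 fold change of -2.28. The part of spermatid transcripts in the level of *Oxct2a* was not tested. Of the 10 pairs tested, none of the 6 pairs of subunits passed 0.05 in the exact permutation test, and *P*-values were not adjusted over pairs because these were chosen with results known.

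The 13 subunits coded by mitochondrial DNA, which assemble with the nuclear-encoded ones, could be read in 4 libraries only. There they took 1.44% and 1.78% of the total in control and 1.33% and 1.45% in cryptorchid replicates 1 and 2. The most abundant, *mt-Co1*, the catalytic subunit of complex IV, was at 12.76 and 12.74 log2 RPM in control and 12.64 and 12.01 in cryptorchid libraries. No comparison was made for these genes in the other 8 libraries, in which all 13 were listed at 0.

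Genes that build or regulate the complexes were given for context. Of 52 assembly factors, 1 was higher and 0 lower at an unadjusted *P* of 0.05 over all libraries, namely *Nubpl*, an iron-sulphur cluster factor of complex I (log2 fold change 0.63). With the sets as a term 4 were higher (7.69%, beside 9.74% of all genes), *Nubpl* among them, and 1 was lower (1.92%, beside 9.17%), *Ndufaf3* (-0.99 ± 0.311, SE). Their median was 0.06, near the 0.04 of all genes. Among 13 regulators, *Tfb1m*, a mitochondrial rRNA methyltransferase, was higher (0.66) and the coactivator gene *Pprc1* lower (-0.37), while *Nrf1* was at -0.32, *Gabpa* at 0.42 and *Tfam* at -0.12, none of these 3 past an unadjusted *P* of 0.05. That made 7.69% of the regulators in each direction, beside 9.74% of all genes higher and 9.17% lower. Among the genes of the tricarboxylic acid cycle reported here, *Dld* was higher (0.69) and *Cs*, *Dlst* and *Mdh2* were lower. *Mdh2*, the mitochondrial malate dehydrogenase, was at -0.69 ± 0.167 (SE) with an adjusted *P* of 0.0423. These calls stand beside the same shares of all genes.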

How the data were processed

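The authors trimmed reads with Trim Galore 0.6.6, mapped them to mm10 with HISAT2 2.1.0, used SeqMonk to count reads over protein-coding genes, and deposited these as log2 RPM. The authors called genes with edgeR on counts. The deposited log2 values are not counts, so the moderated test of limma 3.58.1 (R 4.3.3, eBayes with a trend) was used here over genes with log2 mean RPM above -1, called at 2-fold and an unadjusted *P* of 0.05, without the fold limit, and at a Benjamini-Hochberg adjusted *P* of 0.05. Reads behind each value were recovered as whole multiples of the lowest step (100% whole within 0.01 reads in all libraries); a gene without reads holds 0.9 reads. Library totals fell from up to 28767673 reads in replicates 1 and 2 to 3414861 to 5497816 in replicates 4 and above, so low values there rest on fewer reads. Smart-seq2 reads carry no molecular identifiers.

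Ratios of paralogs and single genes were tested by exact two-sided permutation over all assignments of libraries, or 180 within the 3 library sets. Members and gene lists were chosen with earlier results of these data known. Named were members with an unadjusted *P* under 0.05, the highest and lowest log2 fold change of each complex over all libraries, core subunits, and paralogs with their ubiquitous forms; members lower with the sets as a term, and the genes whose exons overlap them, were named after the values were seen. *Cox4i2*, *Cox5b-ps*, *Atp5h* and *Uqcrb* entered as the highest or lowest of their complex. Transcript lengths are medians of the principal transcripts in GENCODE vM21, known for 85 of 87 members. The strand of counting is not stated, and exons of 27 members overlap a gene on the other strand.

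The fit without a covariate was tested before use on simulated counts. These held no library sets, and their changes were far larger than those of the members. The fit with the 3 sets was not tested in this way, so the simulation says nothing about its calls. Alternatives were median centring, quantile normalization, log2(RPM + 1), log2(RPM + 0.1), no filter, a filter at 2, array weights, voom, a replicate block, replicates 1 to 3 against 4 and above, and each library left out. The 3 sets, replicate 3 left out, replicates 1 and 2 alone and scaling to nuclear reads were added after the data were seen. Python 3.11.15, numpy 2.4.6, pandas 2.3.3 and matplotlib 3.10.9 were used. Promoters are from RefSeq. A gene of the tricarboxylic acid cycle list is not reported here.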

Additional observations from a re-analysis of the deposited data

Results flagged for a closer look

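Of 106 groups of values examined (named genes and ratios in each group of libraries), 18 held a library far from the others by Dixon's test, in which chance flags about 1 in 20 groups, and 15 of the 18 were replicate 3. Control replicate 3 was low for *Ndufs3* (5.07 log2 RPM), *Sdhb* (6.34), *Ndufv1* (6.81), *Uqcrc1* (7.13), *Uqcrc2* (5.72) and *Atp5g3* (5.17). Cryptorchid replicate 3 was low for *Ndufs3* (4.74 log2 RPM), *Sdhb* (5.90), *Cox5b-ps* (-0.49), *Atp5h* (5.32), *Ndufs7* (5.68), *Ndufs8* (5.87), *Ndufv1* (7.14), *Atp5g1* (5.58) and *Atp5g3* (4.87). *Cox6a2* was high in cryptorchid replicate 4, at 0.96 log2 RPM. In control replicate 2 the log2 ratio of *Pdha2* to *Pdha1* was low at -2.85, and that of *Oxct2a* to *Oxct1* was low at -4.01.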

How the results depend on the processing

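Over all libraries, 1 member was lower and 0 were higher at an unadjusted *P* of 0.05. The count of lower members was 7 with array weights, 3 with a term for replicates 1 to 3 against 4 and above, 0 in replicates 1 to 3 alone, 20 in replicates 4 and above alone and, by alternatives added after the data were seen, 11 with replicate 3 of both groups left out and 22 with the 3 library sets. In replicates 4 and above alone 23.5% of the members were lower. Beside them were 8.50% of all genes and 34.0% of the 253 other short and abundant genes, which include the spermatid gene *Prm2*. For the other alternatives here and below, apart from the 3 library sets, no share of all genes is given. Their counts describe the members only. Higher was 1 member with array weights, with replicates 4 and above alone and with replicate 3 left out. Past 2-fold was 1 member after median centring, after quantile normalization, with array weights, in replicates 4 and above and with replicate 3 left out. After adjustment 1 member passed with array weights and 1 with the 3 sets. As single libraries were left out, 1 to 11 members were lower, 0 to 2 higher and 0 to 1 past 2-fold, the 11 being without control replicate 3.

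With the 3 sets, leaving out single libraries gave 10 to 30 lower and 0 to 1 higher members, 0 to 2 past 2-fold and 0 to 3 after adjustment. Array weights gave 1 higher, 1 past 2-fold and 13 after adjustment, and quantile normalization and log2(RPM + 1) each gave 2 after adjustment. The cause of these changes was not tested.

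Whether replicate numbers mark testes of the same mouse is not stated, and the numbers were not taken as pairs, since a correlation over 0.1 was asked of every pair. Same-numbered libraries correlated at 0.347, 0.363, 0.411, 0.250 and 0.0488. Of the 5 control libraries, 4 correlated best with the cryptorchid library of their own number, a hint from the data and not from the design, and replicate 5 with another. A replicate block gave 33 lower members and 0 higher, 2 past 2-fold and 4 after adjustment. It put the *Oxct2a* ratio at -4.40 with an exact permutation *P* of 0.0625, the smallest that 5 pairs allow.

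The ratio of *Cox6b2* to *Cox6b1* differed by -1.01 to -0.49 and that of *Cox7b2* to *Cox7b* by 0.12 to 0.75 as single libraries were left out. Median fold changes of the members moved by less than 1 SD between libraries under every alternative run. For most members that SD was larger than these medians, so the bound cannot show that the medians are stable. Over all libraries the sign of the median turned, from -0.43 without control replicate 3 to 0.12 without cryptorchid replicate 3.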
